A study of Homo sapiens with 18 samples.

Results

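ER5 is an entrectinib-resistant neuroblastoma line, and its transcript levels were set against those of the line it came from. The genes described are those with at least 1 FPKM (a fragment level corrected for transcript length and library total) in at least 3 of the 3 ER5 and 3 parental libraries. That rule kept 17006 of the 63657 identifiers in the table, and 12263 of them were protein coding. The parental line, SY5Y_BR6, derives from SH-SY5Y, a human neuroblastoma line of sympathetic lineage, and was made to express TrkB, the receptor of brain-derived neurotrophic factor. ER5 was established from a subcutaneous tumour of these cells in an athymic nu/nu mouse (mice obtained at 6 weeks of age). That tumour had first responded to oral entrectinib at 60 mg/kg every 4 hours and had then regrown. In culture the resistant cells were taken from 10 nM to 750 nM entrectinib and were held at 200 nM for harvest, whereas the labels name no drug for the parental culture. Resistance, the drug in the medium, growth in a mouse and culture history therefore differ together between the 2 lines and cannot be told apart here. ER5 is the outgrowth of 1 tumour, and the labels do not say whether its 3 libraries came from separate cultures, so every p-value reflects library-to-library spread alone, which may be technical. The other resistant lines serve as a second reference: ER28 and ER29, from mice dosed as for ER5, and ER42 and ER47, from mice dosed every 6 hours.

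Entrectinib inhibits the Trk receptors, ALK and ROS1. Trk and ALK are receptor tyrosine kinases that signal through RAS and ERK, and ERK activity switches on transcripts of its own inhibitors, the DUSP phosphatases and Sprouty proteins. Noradrenergic neuroblastoma cells carry the transcription factors of sympathetic neurons (HAND2, GATA3), store catecholamines in granules packed with chromogranins, and grow neurites built on neuron-specific tubulins.

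The labelled identity was checked against marker lists. Of 11 sympathoadrenal markers, 10 reached 1 FPKM in every ER5 and parental library; TH, the first enzyme of catecholamine synthesis, did not exceed 0.0820 FPKM in the parental libraries or 0.0211 FPKM in the ER5 libraries. Their summed level was 1578 to 2208 FPKM in ER5 and 3998 to 4217 FPKM in the parental line. Leukocyte markers summed to 1.04 to 1.74 FPKM in the ER5 libraries and to 1.23 to 1.34 FPKM in the parental libraries, with none of 11 at 1 FPKM and with CD3E, CD3D and ITGAM listed at 0 in all 6 libraries. Endothelial markers summed to 0.996 to 1.26 FPKM in ER5 and 4.17 to 5.25 FPKM in the parental line, with PECAM1 and ERG at 0. Fibroblast markers summed to 59.7 to 63.6 FPKM in ER5 and 48.2 to 57.6 FPKM in the parental line, with PRRX1 at 0. Of the 7 fibroblast markers that met the rule, 3 were called higher and 2 lower in ER5, the 2 lower ones by 2-fold or more. All ER5 libraries lay above all parental ones in 3 of these 7 and below them all in 2. Those above included COL1A1 (2.76 ± 0.519 and 8.53 ± 0.721 FPKM in the parental line and ER5) and COL3A1 (1.27 ± 0.0275 and 7.20 ± 1.55). ACTA2 was not called (1.94 ± 0.215 and 1.49 ± 0.239). FAP, DCN and COL1A2 did not meet the rule and are not in these counts. FAP also lay above in all ER5 libraries (0.221 ± 0.146 and 0.889 ± 0.152). DCN and COL1A2 were listed at 0 in all 3 parental libraries and read 0.954 to 1.27 and 0.225 to 0.336 FPKM in ER5. Schwann cell markers summed to 5.12 to 6.40 and 24.7 to 26.5 FPKM, where the parental sum was mostly GAP43, which neurons also express. The FPKM of a library summed to between 931685 and 1106280, relative depth ran from 1 to 1.95 times that of parental replicate 1 (1.44, 1.80 and 1.13 in ER5), and 25.6% to 39.8% of each sum came from its 10 highest genes. Libraries correlated at r = 0.956 to 0.971 within ER5, 0.969 to 0.973 within the parental line and 0.892 to 0.903 between them, across genes, which are not independent replicates. In a bulk sample, fewer cells of a kind and less RNA per cell cannot be told apart.

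ER5 differed widely from the parental line, and under the deposited scaling the larger differences were more often losses. Differences were tested with limma on log2(FPKM + 1) over the 19799 genes tested in all 18 libraries, with genes called where the p-value adjusted by Benjamini and Hochberg (BH) fell under 0.05. Of all tested genes 24.5% were called higher and 27.5% lower in ER5, and at 2-fold or more 3.93% higher and 7.58% lower. Among the 17006 genes described, 4578 were called higher and 5293 lower, and at 2-fold or more 764 were higher and 1477 lower. Protein-coding genes leaned further to the lower side, with 3245 higher and 4708 lower of 12263. The median log2 difference over all tested genes was 0.01. The balance depended on the processing: under quantile normalisation 5465 tested genes were called higher and 4604 lower, although at 2-fold or more 784 were higher and 1325 lower. With a pseudocount of 0.1 in place of 1, 1618 tested genes were higher by 2-fold or more and 2020 lower, against 778 and 1501. Against the mean of the other 4 resistant lines, 17.9% of tested genes were called higher in ER5 and 16.8% lower.

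Transcripts of the drug targets NTRK2 and ALK were still present in ER5. NTRK2 (ENSG00000148053, chromosome 9), which encodes TrkB, read 423, 406 and 405 FPKM in the parental libraries and 276, 238 and 229 FPKM in ER5. The groups did not overlap, and the log2 difference was -0.74 ± 0.10 (SE; limma, BH-adjusted p = 2.06e-05). ALK stood at 36.5, 36.4 and 37.2 FPKM in the parental line and at 43.8, 53.1 and 55.9 FPKM in ER5. Its difference of 0.46 ± 0.16 was called (limma, BH-adjusted p = 0.0262), but the call was lost without ER5 replicate 2 (0.0749), ER5 replicate 3 (0.0923) or parental replicate 1 (0.0603), 2 (0.0610) or 3 (0.0524), and with no filter on low values (0.0561). NTRK3 did not exceed 0.491 FPKM in any of the 6 libraries, and ROS1 was listed at 0 in all but 1 ER5 library, at 0.00799 FPKM.

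Among receptors that are not listed targets of the drug, more rose than fell. Of the 17 other receptor tyrosine kinases measured, 11 rose and 2 fell, with a median log2 difference of 0.67 against 0.01 over all tested genes. Among all genes described, 26.9% were called higher and 31.1% lower. The list held 29 genes, and those below the rule were not counted. KIT and FGFR2 were under 1 FPKM in the parental line and met the rule only through ER5 libraries, which adds to the count that rose. KIT, the stem cell factor receptor, showed the largest rise, from 0.760, 0.702 and 0.846 FPKM to 22.0, 41.1 and 15.9 FPKM (log2 difference 3.84 ± 0.39; limma, BH-adjusted p = 7.82e-07). FGFR2, a fibroblast growth factor receptor, rose from 0.321 ± 0.126 to 4.07 ± 0.411 FPKM (mean ± SD, n = 3 libraries, as in all such pairs here). FGFR1 and TYRO3 were the 2 that fell, by 0.37 and 0.55 on the log2 scale, while PDGFRA, ERBB2, ROR2 and PTK7 were not called. Of 6 RET, GDNF co-receptor and ligand genes measured, 2 rose and 3 fell. The co-receptor GFRA3 was called lower, a call that several alternatives lost, and RET and GFRA2 moved in opposite directions. RET, the signalling kinase, fell from 202, 192 and 196 FPKM to 22.2, 16.0 and 22.2 FPKM (log2 difference -3.24 ± 0.21; limma, BH-adjusted p = 1.04e-08). GFRA2 (ENSG00000168546), the co-receptor that presents neurturin to RET, rose from 0.591, 0.822 and 0.385 FPKM to 138, 142 and 116 FPKM (6.38 ± 0.19; limma, BH-adjusted p = 3.04e-12).

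The extremes of the whole comparison included insulin-like growth factor genes and imprinted genes. IGF2 (ENSG00000167244, chromosome 11), a growth factor expressed from the paternal allele, read 1195, 1353 and 1308 FPKM in the parental libraries and 0.495, 2.36 and 1.58 FPKM in ER5. That was the lowest log2 difference of any protein-coding gene, -9.10 ± 0.55 (limma, BH-adjusted p = 4.89e-09). H19 (ENSG00000130600), the noncoding RNA of the same imprinted domain, fell from 6664 ± 99.9 to 29.4 ± 6.66 FPKM. DLK1 and RTL1 of the imprinted domain on chromosome 14 fell as steeply: DLK1, a Notch-like membrane protein, from 1155 ± 42.3 to 4.87 ± 3.14 FPKM, and RTL1, a retrotransposon-derived gene, from 465 ± 13.6 to 0.382 ± 0.269 FPKM. Of 18 imprinted genes measured, 14 fell and 2 rose (median -1.10), and the 2 that rose were PLAGL1 (1.73), a zinc-finger transcription factor, and L3MBTL1 (0.71).

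IGF-binding proteins, which hold the growth factors outside the cell, split. IGFBP3 (ENSG00000146674, chromosome 7) rose from 4.10, 2.29 and 2.61 FPKM to 441, 532 and 383 FPKM, the highest log2 difference of any protein-coding gene at 6.84 ± 0.20 (limma, BH-adjusted p = 3.04e-12). IGFBP5 rose from 3.07 ± 0.521 to 249 ± 48.0 FPKM. IGFBP2 fell from 278 ± 11.6 to 55.2 ± 4.81 FPKM, and IRS2, an adaptor of the insulin and IGF receptors, from 52.6 ± 0.567 to 9.86 ± 0.196 FPKM. Of the 15 IGF genes measured, 3 rose and 7 fell, and the receptor IGF1R was among those that fell (-0.43).

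Other genes that were near silent in the parental line reached moderate levels in ER5. FGF7 (ENSG00000140285, chromosome 15), the keratinocyte growth factor, read 0.128, 0.201 and 0.209 FPKM in the parental libraries and 37.5, 28.9 and 32.6 FPKM in ER5 (log2 difference 4.84 ± 0.20; limma, BH-adjusted p = 8.89e-11). FAM19A3, a secreted chemokine-like protein, was listed at 0 in all 3 parental libraries and read 25.9, 23.4 and 15.7 FPKM in ER5, so no fold is given. Others among the 12 highest were ADAMTSL1 (4.47), a secreted matrix protein, SEMA5A (4.13), an axon guidance semaphorin, MAOA (4.05), a mitochondrial enzyme that degrades catecholamines, PTPN13 (4.02), a protein tyrosine phosphatase, ENPP2 (4.01), which makes lysophosphatidic acid, and PTX3 (3.96), a secreted pattern recognition protein. The rule that chose the 12 highest required that the ER5 and parental libraries did not overlap. ENPP2 was the most variable, at 12.8, 41.1 and 13.2 FPKM in the ER5 libraries.

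**Figure D1:**
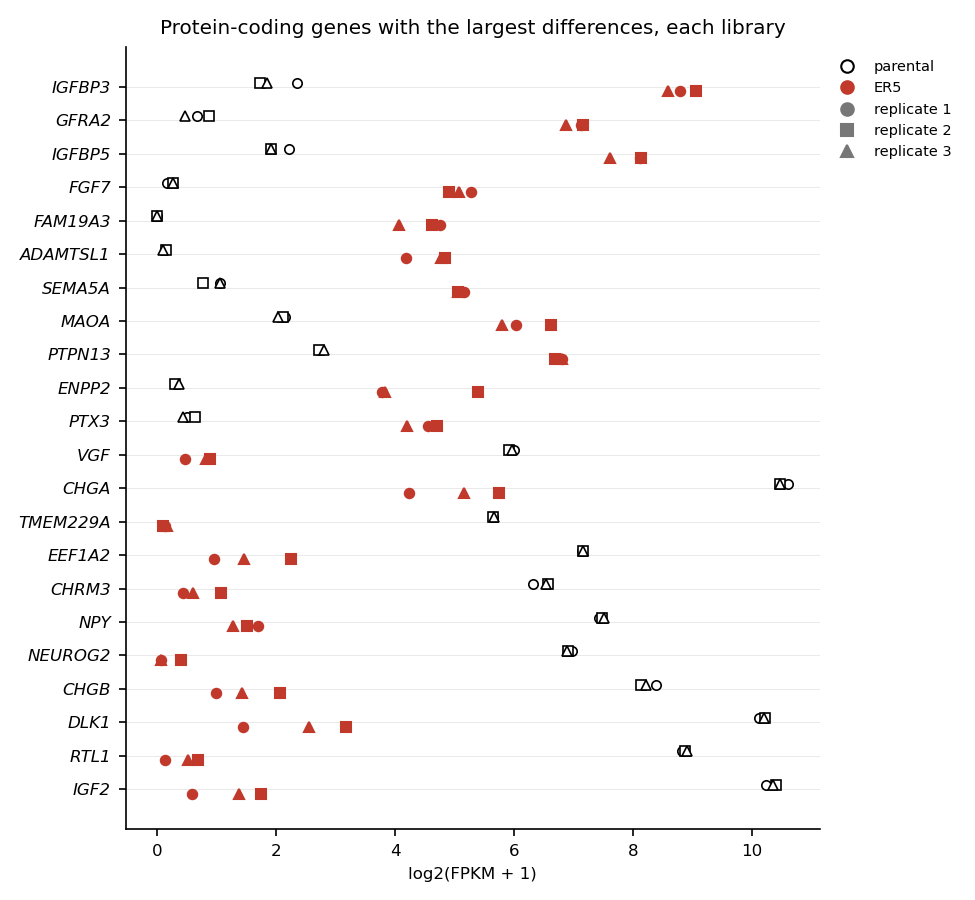
Level of genes among the 12 protein-coding genes with the highest and the 12 with the lowest log2 difference, as log2(FPKM + 1) in each library; open symbols are parental libraries, red symbols ER5 libraries, and the shape gives the replicate. The 2 lines are fully separated in each gene shown because the choice of genes required it. The ER5 libraries of the lowest genes scatter more widely than the parental ones, with CHGA at 17.9 to 52.9 FPKM in ER5 against 1407 to 1553 FPKM in the parental line.

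Among the genes of noradrenergic identity, the transcription factors split while most of the products fell. The 20 noradrenergic transcription factors split into 9 higher, 7 lower and 4 not called. PHOX2A, which helps specify sympathetic neurons, read 524, 498 and 500 FPKM in the parental libraries and 702, 524 and 434 FPKM in ER5. HAND2 stood at 412, 400 and 402 against 484, 455 and 379 FPKM. Both were not called (limma, BH-adjusted p = 0.577 and 0.303), and in each of them ER5 overlapped the parental line, with ER5 replicate 3 the lowest of all 6 libraries. HAND2 was called higher without that replicate (0.21; limma, BH-adjusted p = 0.0310). Under quantile normalisation both were called higher, PHOX2A at 0.33 and HAND2 at 0.44. GATA3 rose from 35.1 ± 3.37 to 194 ± 24.1 FPKM. The zinc-finger factors of neuroendocrine cells fell farthest within this list, INSM1 from 16.3 ± 0.538 to 0.0434 ± 0.0101 FPKM and INSM2 from 34.3 ± 1.06 to 0.278 ± 0.122 FPKM. NEUROG2, a neurogenic factor outside the list, fell from 120 ± 3.79 to 0.141 ± 0.162 FPKM.

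Granule proteins fell steeply. Of 9 granins and prohormone-processing genes measured, 8 fell and 1 rose, the latter being SCG5 (0.59), a chaperone of a prohormone convertase; the median was -1.17. CHGA (ENSG00000100604, chromosome 14), chromogranin A, read 1553, 1407 and 1414 FPKM in the parental libraries and 17.9, 52.9 and 34.8 FPKM in ER5 (-5.46 ± 0.36; limma, BH-adjusted p = 1.06e-08). CHGB fell from 303 ± 26.4 to 1.96 ± 1.12 FPKM, VGF, a neuropeptide precursor, from 61.0 ± 1.71 to 0.669 ± 0.254 FPKM, and SCG3, secretogranin III, from 23.5 ± 0.564 to 0.707 ± 0.387 FPKM. NPY, a neuropeptide stored with noradrenaline, fell from 175 ± 5.24 to 1.84 ± 0.413 FPKM.

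Catecholamine genes fell at most steps measured. Of 10 measured, 6 fell and 1 rose. DDC, which makes dopamine, read 42.0, 47.2 and 43.3 FPKM in the parental line and 4.05, 4.09 and 4.22 FPKM in ER5 (-3.14 ± 0.09; limma, BH-adjusted p = 3.04e-12). DBH, which converts dopamine to noradrenaline, fell from 812 ± 12.7 to 192 ± 22.6 FPKM and remained the most abundant of the list. The vesicular transporter SLC18A1 fell from 20.8 ± 0.837 to 0.210 ± 0.118 FPKM, whereas the plasma membrane noradrenaline transporter SLC6A2, at 56.9 ± 3.10 and 69.6 ± 13.4 FPKM, was not called (limma, BH-adjusted p = 0.469). The degrading enzyme MAOA was the gene that rose.

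Neuronal cytoskeleton and synaptic genes fell with them. Of 24 cytoskeleton genes 21 fell and 1 rose, with a median of -2.28, the lowest of the lists examined. TUBB3, the neuron-specific beta tubulin, read 399, 382 and 373 FPKM in the parental line and 8.31, 15.8 and 11.5 FPKM in ER5 (-4.95 ± 0.24; limma, BH-adjusted p = 4.6e-10), and TUBB2B fell from 169 ± 5.50 to 5.20 ± 2.57 FPKM. The RNA-binding protein ELAVL4 was the gene that rose (0.28), and NEFH and ELAVL2 were not called. Of 20 synaptic vesicle genes 13 fell and 5 rose. The calcium sensors differed in direction: SYT4 fell from 87.2 ± 1.69 to 5.66 ± 1.06 FPKM and SYT1 rose from 40.7 ± 3.96 to 134 ± 13.4 FPKM. The muscarinic receptor CHRM3 (-5.77) and the translation factor of neurons and muscle EEF1A2 (-5.60) were among the 12 lowest protein-coding genes, and L1CAM, a neural adhesion protein, fell from 50.5 ± 0.787 to 0.978 ± 0.709 FPKM. REST (ENSG00000084093), a repressor that binds the RE1 element of neuronal genes, was examined after these values had been seen. It read 13.1, 14.5 and 13.4 FPKM in the parental line and 29.9, 32.5 and 29.9 FPKM in ER5 (1.12 ± 0.12; limma, BH-adjusted p = 1.77e-06).

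Promoters of the genes in the granule, cytoskeleton and synaptic lists, 41 with a sequence, were read for the cAMP response element (CRE), TGACGTCA, and for the left and right parts of RE1, TTCAGCACC and GGACAGCGC, on both strands; these motifs were chosen after the values were seen. Most members of these lists fell, with or without a sequence: 8 of 9 granule, 21 of 24 cytoskeleton and 13 of 20 synaptic genes. A link between motif and fall was not tested. The RefSeq windows run from 250 bases before to 50 bases after each start site. They were available for 10070 (82.12%) of the 12263 protein-coding genes. Shown are the 6 that held any of these motifs, all of genes that fell, on GRCh38.p14, read 5′ to 3′ along the gene's strand, with motif letters in capitals.
CHGA, chr14:92922900-92923199, plus strand, CRE: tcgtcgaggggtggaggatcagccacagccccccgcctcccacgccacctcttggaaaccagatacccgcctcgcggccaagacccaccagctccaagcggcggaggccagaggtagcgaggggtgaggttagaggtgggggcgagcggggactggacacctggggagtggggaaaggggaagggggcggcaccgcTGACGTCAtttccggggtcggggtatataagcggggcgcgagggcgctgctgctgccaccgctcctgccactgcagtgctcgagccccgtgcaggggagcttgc
VGF, chr7:101165520-101165819, minus strand, CRE and then GGACAGCGC on the opposite strand: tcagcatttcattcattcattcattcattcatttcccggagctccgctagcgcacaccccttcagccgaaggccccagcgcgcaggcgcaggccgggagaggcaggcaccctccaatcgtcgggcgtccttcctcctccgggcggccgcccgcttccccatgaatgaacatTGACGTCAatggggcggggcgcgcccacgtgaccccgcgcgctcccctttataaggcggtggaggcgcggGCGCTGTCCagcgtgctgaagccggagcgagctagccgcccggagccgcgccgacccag
TUBB2A, chr6:3157495-3157794, minus strand, CRE: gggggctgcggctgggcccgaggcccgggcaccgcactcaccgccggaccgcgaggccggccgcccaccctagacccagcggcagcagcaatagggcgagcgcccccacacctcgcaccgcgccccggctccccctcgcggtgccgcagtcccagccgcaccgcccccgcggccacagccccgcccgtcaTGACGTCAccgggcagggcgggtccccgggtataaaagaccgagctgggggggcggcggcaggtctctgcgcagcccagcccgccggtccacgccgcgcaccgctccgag
SYN1, chrX:47619808-47620107, minus strand, TTCAGCACC and then CRE: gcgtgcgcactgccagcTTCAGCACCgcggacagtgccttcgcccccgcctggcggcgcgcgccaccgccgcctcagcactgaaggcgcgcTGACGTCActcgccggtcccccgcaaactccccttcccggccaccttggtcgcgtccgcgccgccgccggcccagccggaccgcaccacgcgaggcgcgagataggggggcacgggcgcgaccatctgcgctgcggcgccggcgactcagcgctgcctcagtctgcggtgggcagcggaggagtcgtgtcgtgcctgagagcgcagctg
SCG3, chr15:51681253-51681552, plus strand, both RE1 parts: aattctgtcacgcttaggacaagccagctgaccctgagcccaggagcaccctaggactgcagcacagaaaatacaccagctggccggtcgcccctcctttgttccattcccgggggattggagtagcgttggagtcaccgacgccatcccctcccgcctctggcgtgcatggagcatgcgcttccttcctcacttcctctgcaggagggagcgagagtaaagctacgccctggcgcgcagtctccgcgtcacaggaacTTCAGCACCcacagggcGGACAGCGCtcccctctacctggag
UNC13A, chr19:17688305-17688604, minus strand, both RE1 parts on the opposite strand: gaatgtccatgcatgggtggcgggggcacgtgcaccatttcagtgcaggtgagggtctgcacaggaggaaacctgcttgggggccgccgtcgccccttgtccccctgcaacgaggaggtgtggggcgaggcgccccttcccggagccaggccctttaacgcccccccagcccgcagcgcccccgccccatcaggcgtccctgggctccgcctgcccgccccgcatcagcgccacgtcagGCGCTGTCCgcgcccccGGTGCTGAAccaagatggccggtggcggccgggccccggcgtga

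The CRE began 54 bases before the start site in CHGA, 79 in VGF, 60 in TUBB2A and 159 in SYN1. In SCG3 and in UNC13A the first letters of the RE1 parts lay 17 bases apart. Only exact matches were marked or counted. In SYN1 and VGF a stretch near the marked RE1 part matches the other part except for a changed letter. TUBB2A, a beta tubulin, fell from 29.6 ± 2.03 to 2.32 ± 0.286 FPKM, SYN1, synapsin I, from 4.49 ± 0.337 to 0.437 ± 0.0889 FPKM, and UNC13A, a vesicle priming protein, from 5.73 ± 0.514 to 0.363 ± 0.116 FPKM. The CRE was held by 3.41% of the 10070 promoters, by 4.02% of the 995 promoters of genes lower by 2-fold or more, by 2.52% of the 357 of genes higher by 2-fold or more, by 1.98% of all 27305 in the table and by 4 of the 41 list promoters. GGACAGCGC was held by 0.993%, 1.51%, 0.560% and 0.645% of the same sets in that order and by 3 of the 41. TTCAGCACC was held by 0.298%, 0.704%, 0.280% and 0.403% and by 3 of the 41. Most genes that fell held none of these letters in this window, and a match describes the sequence only.

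Transcripts that ERK signalling switches on were lower in ER5, with exceptions. Of 20 measured, 14 fell and 3 rose, with a median of -1.68. ETV4 (ENSG00000175832, chromosome 17), an ETS factor induced by ERK, read 27.7, 25.8 and 26.3 FPKM in the parental line and 1.14, 1.90 and 1.57 FPKM in ER5 (-3.45 ± 0.16; limma, BH-adjusted p = 2.71e-10). The ERK phosphatase DUSP4 fell from 27.6 ± 0.846 to 2.13 ± 0.209 FPKM, and PHLDA1, an early growth factor response gene, from 18.6 ± 0.715 to 0.119 ± 0.104 FPKM. CCND1, cyclin D1, fell from 295 ± 6.24 to 96.8 ± 15.5 FPKM. DUSP2, another phosphatase, rose from 0.852 ± 0.0362 to 21.0 ± 3.10 FPKM, and DUSP1 and MYC rose by 0.87 and 1.60. EGR1, an immediate early factor at 13.2, 18.8 and 15.5 FPKM in the parental line, was not called although it read 87.2, 54.9 and 40.4 FPKM in ER5 without overlap (1.82 ± 0.83; limma, BH-adjusted p = 0.0814). Of 26 RAS and ERK pathway genes themselves, 3 rose, 10 fell and 13 were not called, with a median of -0.12. The count that rose was 5 without ER5 replicate 3 and 6 under quantile normalisation.

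MYCN fell and MYC rose, both transcription factors that drive growth and division. MYCN (ENSG00000134323, chromosome 2) read 13.9, 13.0 and 13.4 FPKM in the parental libraries and 0.803, 0.856 and 0.570 FPKM in ER5 (-3.05 ± 0.19; limma, BH-adjusted p = 7.36e-09). MYC read 44.7, 42.2 and 41.9 against 153, 148 and 101 FPKM (1.60 ± 0.15; limma, BH-adjusted p = 4.37e-07). ODC1, a MYC family target that opens polyamine synthesis, fell from 103 ± 1.85 to 35.7 ± 6.51 FPKM, and MXD4, a MAX partner that opposes MYC, rose from 19.4 ± 1.33 to 46.7 ± 1.82 FPKM.

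Proliferation transcripts were lower in ER5 almost without exception. All 25 mitosis genes fell, with a median of -1.61, and 25 of 26 replication genes fell, with a median of -1.43. MKI67, the proliferation antigen, read 73.0, 76.1 and 80.2 FPKM in the parental line and 21.6, 16.2 and 25.8 FPKM in ER5 (-1.82 ± 0.14; limma, BH-adjusted p = 5.11e-08). RRM2 (ENSG00000171848), a subunit of ribonucleotide reductase, fell from 195 ± 4.10 to 29.0 ± 9.97 FPKM, E2F1, which drives S phase genes, from 42.0 ± 0.750 to 6.66 ± 1.30 FPKM, and CDC20, an activator of the anaphase-promoting complex, from 46.9 ± 1.69 to 12.1 ± 2.26 FPKM. The helicase subunit MCM7, at 217 ± 5.97 and 211 ± 11.5 FPKM, was the replication gene not called, while the other MCM subunits of the list fell. By library, the median difference of the mitosis list from the parental mean was -1.45, -2.02 and -1.45 in ER5 replicates 1, 2 and 3, so replicate 2 held the lowest proliferation transcripts. All 16 replication-dependent histone genes measured fell, by a median of 1.01 on the log2 scale. The CDK inhibitor CDKN1A did not move opposite to these genes: it fell from 18.6 ± 0.559 to 3.32 ± 0.473 FPKM.

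Ribosomal protein transcripts rose together under the deposited scaling. All 41 measured were called higher, with a median of 0.82, and in all 41 the ER5 libraries lay above the parental ones. Such separation was common, as 5176 of the 17006 genes described had all ER5 libraries above all parental ones and 5802 had them below. RPL4 (ENSG00000174444, chromosome 15), a large subunit protein, read 1386, 1362 and 1369 FPKM in the parental line and 3328, 3549 and 2783 FPKM in ER5 (1.22 ± 0.10; limma, BH-adjusted p = 1.23e-07). RPL35 had the smallest difference (0.32; limma, BH-adjusted p = 0.0407). The size of the rise depends on the scaling: under quantile normalisation, which forces every library to the same distribution and acts most on abundant transcripts, 26 of the 41 were called higher, RPL8 (-0.30) and RPL35 (-0.37) were called lower and the median was 0.21. Of the 13 transcripts of the mitochondrial genome, 2 fell and 11 were not called, under quantile normalisation 12 fell, and without ER5 replicate 3, 2 rose.

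Metabolic and chaperone genes were lower as groups. Of 32 glycolysis and hypoxia genes 25 fell and 4 rose (median -1.08). LDHA, lactate dehydrogenase A, read 739, 733 and 753 FPKM in the parental line and 197, 158 and 164 FPKM in ER5 (-2.10 ± 0.12; limma, BH-adjusted p = 2e-09), and the hypoxia factor EPAS1 fell from 51.5 ± 0.296 to 9.14 ± 0.485 FPKM. The genes that rose were EGLN3 (1.78), NDRG1 (1.30), PFKM (0.78) and SLC16A3 (0.62). Of 33 sterol and fatty acid synthesis genes 31 fell and 1, INSIG2 (0.20), rose, with a median of -0.69; the sterol carrier STARD4 fell from 50.3 ± 1.38 to 3.41 ± 0.585 FPKM and the desaturase FADS2 from 349 ± 5.08 to 83.0 ± 7.96 FPKM. Of 22 heat shock genes 18 fell and none rose (median -0.82), and HSPA8, the constitutive cytosolic HSP70, fell from 1093 ± 47.0 to 368 ± 59.8 FPKM. Of 32 endoplasmic reticulum chaperone and stress genes 21 fell and 2 rose (median -0.67), led by MANF (-2.05) and SDF2L1 (-2.05). Of 38 nuclear respiratory chain genes 26 fell and 4 rose (median -0.48). The respiratory chain genes that rose numbered 2 without ER5 replicate 1 and 7 under quantile normalisation, and the endoplasmic reticulum genes that rose numbered 4 without ER5 replicate 3 and 5 under quantile normalisation.

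Against the mean of ER28, ER29, ER42 and ER47, the glycolysis list had 6 higher and 10 lower (median -0.01), sterol synthesis 1 higher and 11 lower (-0.15), heat shock 1 higher and 8 lower (-0.14) and respiratory chain 6 higher and 2 lower (-0.02). The mitosis list had 25 of 25 lower (-0.85), replication 24 of 26 lower (-0.78), neuronal cytoskeleton 21 of 24 lower (-1.49) and ERK output 13 of 20 lower and 3 higher (-0.68). All 41 ribosomal protein genes were higher than in the other lines (0.59), 23 of them under quantile normalisation. Over all tested genes the median was 0.0005 in that comparison.

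**Figure D2:**
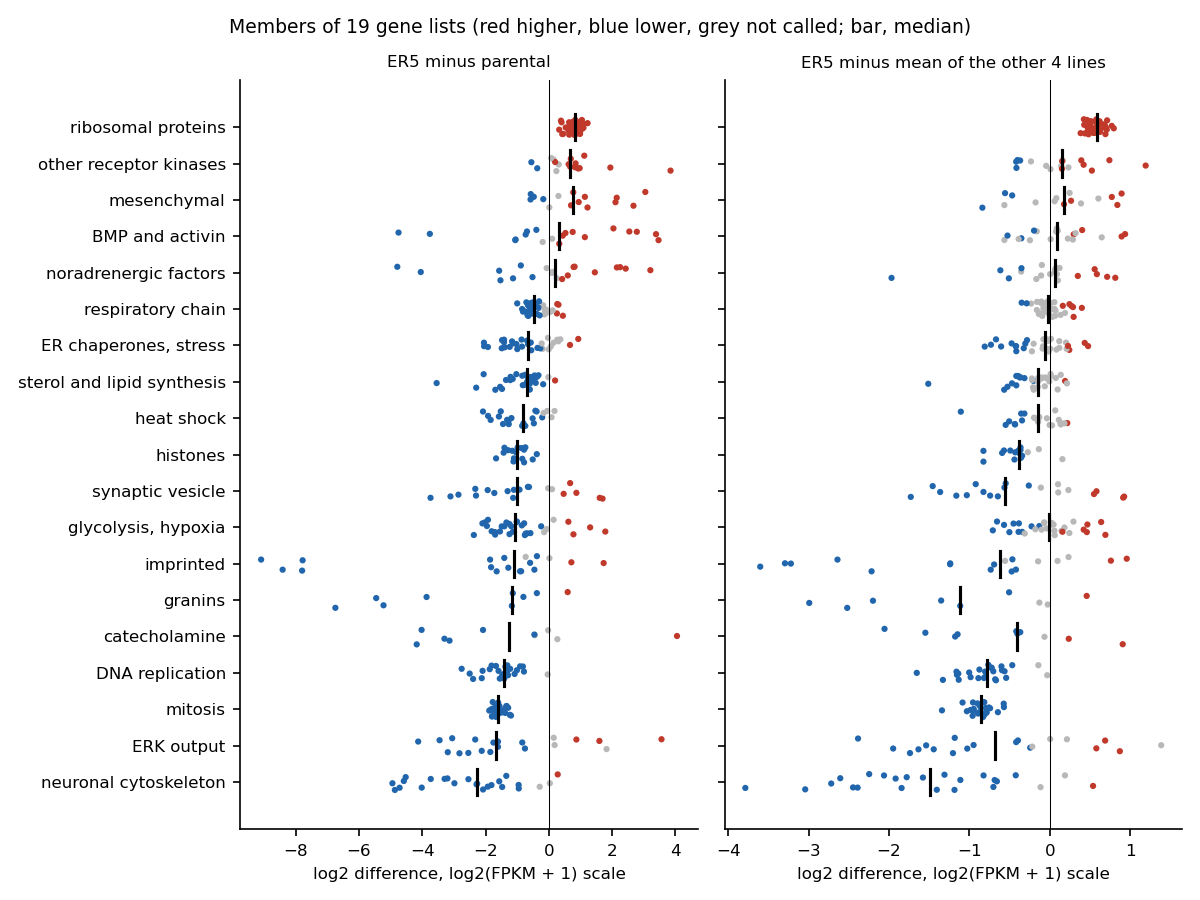
Each point is 1 member of a gene list, at its log2 difference between ER5 and the parental line (left) or between ER5 and the mean of the other 4 resistant lines (right), with the list median as a bar and panels drawn to different scales. The medians of the neuronal cytoskeleton, ERK output, mitosis and replication lists lie left of 0 in both panels, with 3 ERK output genes and 1 cytoskeleton gene called higher in each, the ribosomal proteins right of 0 in both, and the glycolysis, sterol, heat shock and respiratory chain lists lie left of 0 in the left panel with medians of -0.15 to -0.01 in the right panel.

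Genes of cell survival moved in both directions. BCL2 (ENSG00000171791, chromosome 18), which blocks mitochondrial apoptosis, read 7.24, 6.23 and 7.29 FPKM in the parental line and 81.5, 81.1 and 80.7 FPKM in ER5 (3.38 ± 0.19; limma, BH-adjusted p = 2.28e-09). BMF, a protein of the same family that promotes apoptosis, rose from 3.64 ± 0.798 to 45.3 ± 8.89 FPKM, and HRK, another promoter of apoptosis, fell from 5.30 ± 0.289 to 0.175 ± 0.0171 FPKM. Of 20 family and caspase genes 5 rose and 11 fell, and MCL1, at 104 ± 2.13 and 105 ± 16.2 FPKM, was not called (limma, BH-adjusted p = 0.984).

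Of 19 BMP and activin genes 10 rose and 7 fell. The ligands INHBA, at 26.5 ± 1.82 FPKM in the parental line and at most 0.0315 FPKM in ER5, and BMP7, from 14.4 ± 0.844 to 0.137 ± 0.0358 FPKM, were those that fell farthest. The inhibitor SMAD6 (3.39) rose, and the target ID2 rose from 33.7 ± 2.34 to 245 ± 84.2 FPKM. Of 15 mesenchymal genes 9 rose and 4 fell (median 0.77): SNAI2, a neural crest factor, rose from 1.94, 1.47 and 1.66 FPKM to 34.9, 17.4 and 15.5 FPKM (3.05 ± 0.33; limma, BH-adjusted p = 1.44e-06), and SOX9 from 0.706 ± 0.0260 to 10.2 ± 3.58 FPKM. VIM and CD44 were not called. Without parental replicate 2 or parental replicate 3, 2 of the mesenchymal genes were called lower in place of 4. The fibroblast marker sum was 59.7 to 63.6 FPKM in ER5 and 48.2 to 57.6 FPKM in the parental line. Of that list, the collagens COL1A1 and COL3A1 were higher in ER5 as given above, and 2 other markers were lower. The part of these markers in the mesenchymal values was not tested.

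Other groups moved in both directions or little. Of 16 ABC transporters 3 rose and 4 fell; ABCB1, the multidrug transporter, fell from 27.3 ± 0.795 to 9.51 ± 4.20 FPKM and ABCC8 rose from 0.801 ± 0.366 to 19.7 ± 2.32 FPKM. Of 16 interferon genes 4 rose and 2 fell, and none fell without ER5 replicate 3 or without parental replicate 2. Of 10 HLA and antigen-processing genes 2 rose and 2 fell, and 4 rose under quantile normalisation. Of 30 lysosome genes 6 rose and 9 fell (median -0.12), led by CTSF (2.08), a cathepsin. Of 10 ganglioside synthesis genes 6 fell and 1 rose, and B4GALNT1, the synthase of the neuroblastoma antigen GD2, fell by 2.67 on the log2 scale.

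ER5 also differed from the other resistant lines. That contrast uses no parental library, although the gene filter and the fitted spread do. Over all tested genes, 3545 were called higher and 3317 lower than the mean of those lines. Of the genes described, 3519 were higher and 2975 lower, but their rule leaves out genes expressed only in the other lines. Of the protein-coding genes described, 2876 were called higher and 2507 lower. Among these, 959 of the higher and 1029 of the lower had all 3 ER5 libraries beyond all 12 libraries of the other lines. FGF7 showed the largest excess: the other lines ranged from 0.819 to 8.23 FPKM, below the 28.9 FPKM of the lowest ER5 library (3.14 ± 0.16; limma, BH-adjusted p = 6.92e-09). HGF (ENSG00000019991, chromosome 7), the ligand of MET, read 42.5, 25.0 and 28.8 FPKM in ER5, 0.797 to 9.78 FPKM in the other lines and 3.13 to 4.09 FPKM in the parental line. PTPN13 stood at 111, 102 and 111 FPKM in ER5 and at 9.95 to 46.4 FPKM in the other lines. GRIP1, a synaptic scaffold protein, was at 19.3, 17.2 and 9.38 FPKM in ER5 and at 11.3 to 13.5 FPKM in the parental line (limma, BH-adjusted p = 0.636), so that only the other lines, at 0.404 to 8.12 FPKM, were lower.

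The 10 genes farthest below the other lines included neuronal and imprinted genes. TUBB2B (ENSG00000137285, chromosome 6) read 2.70, 7.83 and 5.06 FPKM in ER5 and 49.9 to 125 FPKM in the other lines (-3.79 ± 0.19; limma, BH-adjusted p = 7.12e-09). ISLR2, a neural membrane protein, read 3.68, 3.39 and 3.90 FPKM in ER5, 20.2 to 122 FPKM in the other lines and 52.8 to 57.5 FPKM in the parental line. TFPI2, a protease inhibitor, at 0.662, 0.203 and 0.563 FPKM in ER5, was at 5.69 to 7.87 FPKM in the parental line and at 5.77 to 26.9 FPKM in the other lines. In the neuronal cytoskeleton list, 20 of 24 genes had all 3 ER5 libraries below all 12 of the other lines, against 1156 of the 17006 genes described, and in the mitosis list 9 of 25. MYCN was also lower than in the other lines, at 0.570 to 0.856 FPKM against 3.31 to 11.4 FPKM (-2.07 ± 0.15; limma, BH-adjusted p = 1.97e-07).

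**Figure D3:**
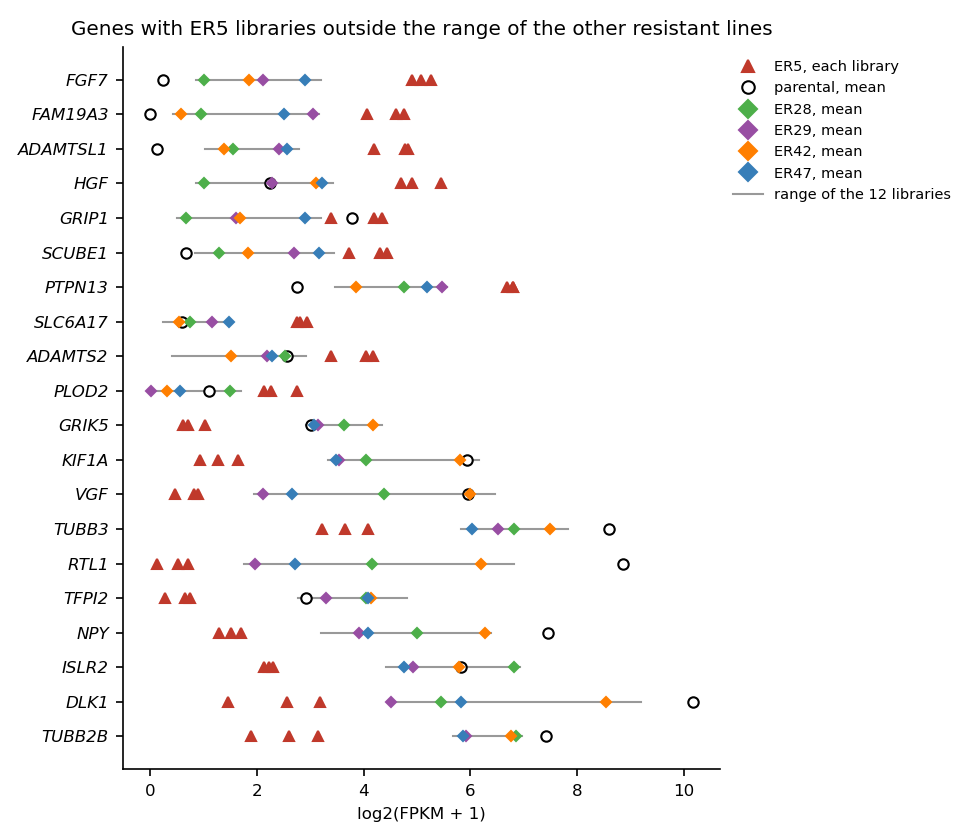
Levels, as log2(FPKM + 1), of the 20 genes with the largest differences between ER5 and the other resistant lines among genes whose 3 ER5 libraries (triangles) all lie outside the range of the other 12 libraries (grey line); diamonds are line means and open circles the parental mean. In the upper 10 genes the triangles lie right of the line and in the lower 10 left of it, and for GRIP1 the parental mean falls among the ER5 libraries.

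Along the genome, the differences were not evenly spread. In every run of 50 consecutive members on a chromosome the median log2 difference was taken, and the middle 95% of 15159 runs lay between -0.29 and 0.25. The lowest run was near the start of chromosome 2, from RNASEH1 to SMC6, with a median of -0.59, 31 genes lower and 7 higher. Against the other resistant lines the same run had a median of -0.51, with 37 genes lower and none higher. In consecutive blocks of 50 from the start of the chromosome, the median against the other lines was -0.48, -0.47, -0.34, -0.41 and -0.42, and then 0.01 in the next block. The first block differed from the parental mean by -0.45, -0.50 and -0.40 in ER5 replicates 1, 2 and 3. MYCN, ODC1 and RRM2 lie in the lowest run, as do YWHAQ, a 14-3-3 protein that fell from 400 ± 17.1 to 188 ± 9.34 FPKM, PDIA6, a disulphide isomerase that fell from 181 ± 5.63 to 67.4 ± 6.95 FPKM, and RPS7, at 1293 ± 37.4 and 1446 ± 156 FPKM, which was not called (limma, BH-adjusted p = 0.25) and turned to -0.48 under quantile normalisation. No DNA was measured, and copy number was not tested.

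The highest run was the end of chromosome 5, with a median of 0.50, 34 genes higher and 3 lower. RACK1, a ribosome-bound scaffold in that run, rose from 1213, 1116 and 1129 FPKM to 3192, 3298 and 2624 FPKM (1.39 ± 0.10; limma, BH-adjusted p = 4.08e-08), while CANX, HNRNPH1 and DBN1 were not called. SNORD95, a small nucleolar RNA of that run, ranged from 122 to 2381 FPKM in the parental line and from 2552 to 10147 FPKM in ER5, and its call (3.13; limma, BH-adjusted p = 0.00885) was lost without parental replicate 3 (0.0535) and with fewer libraries in the fit (0.0654). Against the other lines the last 50 genes had a median of 0.32, and the lines were unlike there, with RACK1 at 873 FPKM in ER42 and at 1741 to 1974 FPKM in ER28, ER29 and ER47.

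**Figure D4:**
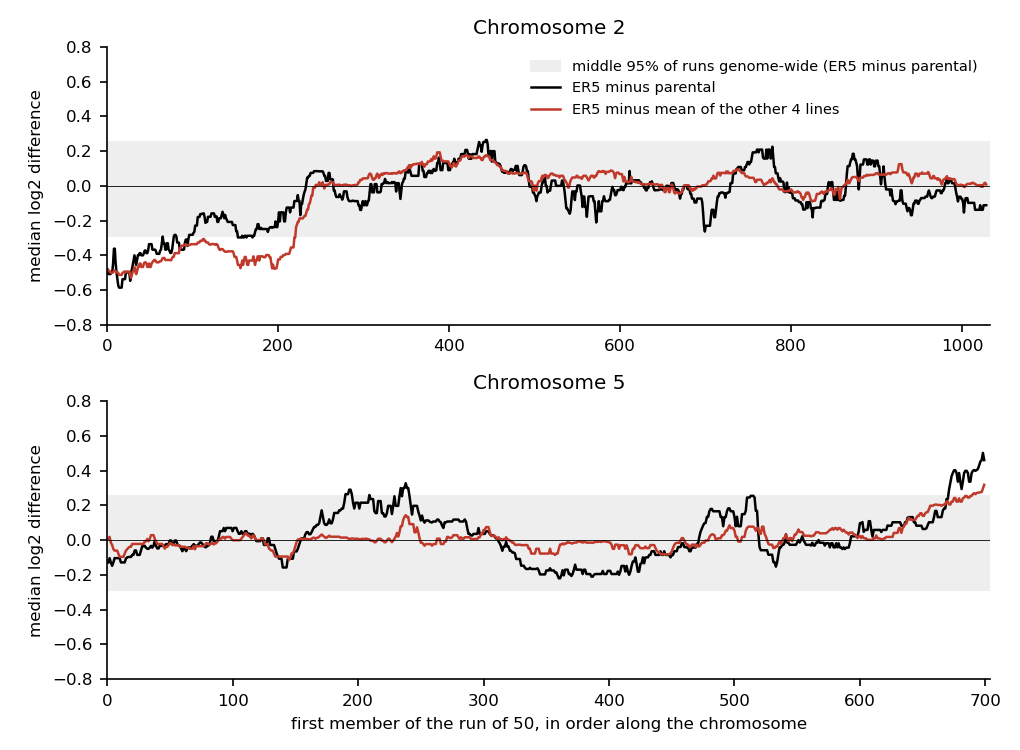
Median log2 difference over runs of 50 consecutive members along chromosomes 2 and 5, for ER5 minus parental (black) and ER5 minus the mean of the other 4 lines (red), with the middle 95% of all runs shaded for the black line (-0.29 to 0.25). The red line stays below the 0 line until about member 250 of chromosome 2 and then returns to it, and both lines rise at the end of chromosome 5.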

How the data were processed

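RNA was depleted of ribosomal RNA with KAPA RNA HyperPrep with RiboErase, per the labels' protocols, and sequenced on HiSeq and NextSeq instruments. The labels do not assign libraries to instruments, so no batch could be tested. The authors deposited FPKM per gene for 18 libraries. The submitters' processing notes name STAR 2.5.3, STAR-Fusion, featureCounts, Subread 1.5.0-p1 and hg19. For the FPKM values, tool and strand setting: not given in the sources used here. Relative depth was estimated from the steps between low values, where the most frequent ratio held for 11.0% to 25.9% of the genes compared, so it is approximate. FPKM are not read counts, and no count test was run.

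Genes at 1 FPKM or more in at least 3 of 18 libraries (19799) were fitted in limma 3.58.1 (R 4.3.3) on log2(FPKM + 1), with trend and 1 coefficient per line. ER5 was set against the parental line and against the mean of the other 4 lines, and p-values were BH-adjusted over all tested genes. Folds on this scale understate the change of low genes. The procedure was tested on simulated data. Gene types and order came from a GRCh38 annotation, which holds 16315 of the 17006 genes; no gene coordinates are given except RefSeq promoter windows.

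Members and lists were chosen with earlier results of these data known. Genes were named by rule: the 12 highest and 12 lowest called protein-coding genes without overlap, up to 4 called genes per list, the 10 highest and 10 lowest against the other lines beyond all 12 libraries, the drug targets, MYC and MYCN, and up to 5 abundant genes of the extreme chromosome runs. REST, TUBB2A, SYN1, UNC13A, EGR1 and other list members named as exceptions or as not called were chosen after their values were seen. Same-numbered ER5 and parental libraries showed little shared deviation, which does not settle whether they are paired. Some genes that the rule names are not reported here.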

Additional observations from a re-analysis of the deposited data

Results flagged for a closer look

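The following 20 genes had ER5 libraries that all lay outside the range of the 12 libraries of ER28, ER29, ER42 and ER47, with a called log2 difference from the mean of those lines (limma, BH-adjusted p under 0.05). The values are log2 differences on the log2(FPKM + 1) scale.

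On the higher side stood FGF7 (3.14), FAM19A3 (2.72), ADAMTSL1 (2.67), HGF (2.63), GRIP1 (2.30), SCUBE1 (1.98), PTPN13 (1.97), SLC6A17 (1.87), ADAMTS2 (1.82) and PLOD2 (1.79). They include secreted proteins, namely the growth factors FGF7 and HGF, the matrix protein ADAMTSL1, the procollagen protease ADAMTS2 and the chemokine-like FAM19A3. PLOD2 hydroxylates lysines of collagen.

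On the lower side stood TUBB2B (-3.79), DLK1 (-3.60), ISLR2 (-3.33), NPY (-3.28), TFPI2 (-3.26), RTL1 (-3.22), TUBB3 (-3.04), VGF (-2.99), KIF1A (-2.92) and GRIK5 (-2.73). KIF1A is a kinesin that carries synaptic vesicle precursors along axons, and GRIK5 is a kainate receptor subunit.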

How the results depend on the processing

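Over the genes named by rule, 2956 values kept their direction and their side of the threshold under the alternatives, 30 lost the call, 8 gained one and 2 reversed. The reversals came under quantile normalisation, for RPS7 (-0.48) and DBN1 (0.23), neither called under the deposited scaling. Outside the rule, the ribosomal protein genes RPL8 and RPL35 turned from called higher to called lower under it (-0.30 and -0.37). Over the gene lists, 1266 counts were within 1.5 times or 1 gene of the reported count and 34 were not. Lost calls belonged to ALK, GFRA3, IRF1, NLRC5, MT-ND5 and SNORD95, and gained calls included those of PHOX2A, HAND2, HNRNPH1 and CANX. With a pseudocount of 0.1 in place of 1, the genes called at 2-fold or more rose to 1618 higher and 2020 lower against the parental line (778 and 1501 with 1), and against the other lines to 184 higher (106) and 1077 lower (407). The called genes were 47.1% higher under the deposited scaling and 54.3% higher under quantile normalisation. The deviations of same-numbered ER5 and parental libraries from their own line means correlated at 0.0428, -0.0733 and 0.0333. Over all pairs of lines, same-numbered libraries correlated at -0.263 to 0.230. These values cannot settle whether the numbers pair the libraries, since each deviation is taken from a mean of 3. With the replicate block, 4914 genes were called higher and 5516 lower, against 4854 and 5448 without it. FPKM carry no counts, so low genes have an unknown counting error, and a level listed at 0 may lie below detection.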

Other observations

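Most noncoding classes examined had more genes higher than lower, unlike protein-coding genes, where 3245 were higher and 4708 lower. Of 643 long intergenic noncoding RNAs described, 244 were higher and 65 lower in ER5 than in the parental line, and of 1356 antisense genes 395 were higher and 200 lower. Of 839 processed pseudogenes 134 were higher and 73 lower. Over all genes described, 26.9% were called higher and 31.1% lower. Set against those shares, processed pseudogenes were called less often in both directions. Antisense genes were called higher about as often and lower less often. The sources used here do not state whether counting used strand, so antisense genes and their partners cannot be told apart. Of 141 small nucleolar RNAs 45 were higher and 2 lower, and of 34 small nuclear RNAs none was higher and 6 were lower. These short transcripts varied widely between libraries, and the highest single gene was a small nucleolar RNA (SNORD3A) in ER5 replicates 1 and 2 and the RNA listed as RF00100 in the other 4 libraries.

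The ER5 libraries did not hold the same order in the genes that moved most. Replicate 2 was the highest of the 3 in 57 of the 128 genes that were lower by 8-fold or more, against 25.8% of all genes described. Replicate 1 was the highest in 31 of the 53 genes that were higher by 8-fold or more, against 37.5% of all genes described.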
